A study of Mus musculus with 24 samples.

Results

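Cysteine supply and glutathione metabolism were followed through 10 genes in RN2, a line of mouse acute myeloid leukaemia cells, before and after Ogdh was silenced. The genes were chosen by name for their place in the pathway, with earlier results of these data known. All 10 were found among the 53465 genes of the count table. Of them, 9 passed the filter on low counts and were tested with 14249 genes in all; the exception was Cbs. Slc7a11, Cth and Cbs bring cysteine into the cell or make it there, and the other genes build glutathione from it (Gclc, Gclm and Gss), reduce oxidised glutathione (Gsr), break glutathione down (Chac1) or spend it on peroxides (Gpx1 and Gpx4).

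All cells carried the Mll-Af9 fusion and NrasG12D, and each clone carried 1 of 3 doxycycline-inducible short hairpin RNAs. The control was shRen713, and shOgdh346 and shOgdh2081 were directed against Ogdh, a subunit of the 2-oxoglutarate dehydrogenase complex of the citric acid cycle. Cells were untreated at day 0 and had received doxycycline at day 4, the control cells included. Each hairpin had 2 clones, each clone and day had 2 libraries, and the 24 libraries formed 6 groups of 4. The clones came from 1 cell line, so the spread between them is a spread between clones of that line and not between leukaemias.

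Glutathione is a tripeptide of glutamate, cysteine and glycine, and cysteine is commonly its limiting part. Cells import cystine in exchange for glutamate through the carrier xCT, which Slc7a11 encodes, or make cysteine from methionine by transsulfuration, in which cystathionine beta-synthase (Cbs) makes cystathionine and cystathionine gamma-lyase (Cth) splits it. Glutamate-cysteine ligase (Gclc and Gclm) and glutathione synthetase (Gss) then assemble the tripeptide, and glutathione reductase (Gsr) restores it from its oxidised form with NADPH.

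Library totals ran from 7209186 to 20705468 counts. Levels are given as CPM, the count of a gene relative to the scaled total of its library, adjusted for library composition. Ogdh stood at 206 to 253 CPM in the 4 control libraries at day 4, at 34.9 to 58.0 with shOgdh346 and at 32.3 to 70.9 with shOgdh2081, so the silenced gene followed the labels in every library. At day 0 it stood at 202 to 250 CPM with the control, 126 to 150 with shOgdh346 and 163 to 235 with shOgdh2081. All shOgdh346 libraries thus lay below all control libraries before doxycycline, while those of shOgdh2081 overlapped the control. The day 0 difference in Ogdh was -0.72 ± 0.32 (log2, SE) with shOgdh346 (unadjusted p 0.0514 in edgeR's quasi-likelihood test). With shOgdh2081 it was -0.28 ± 0.31 (unadjusted p 0.392 in edgeR). Neither passed after adjustment, where 0% of all genes did. The 10 markers of myeloid leukaemia were all above 1 CPM in at least 1 library. In the mean net change defined next, 3 of them rose, namely Cd33 (1.86), Ptprc (0.95) and Spi1 (0.62). Another 3 fell, namely Mpo (-2.46), Elane (-1.32) and Kit (-1.03). Of 6 monocyte and macrophage markers 2 rose, Adgre1 (1.19) and Cd68 (0.67), and 1 fell, Ly86 (-2.31). Under 1 CPM in every library were 6 of 7 T and B cell markers and 4 of 6 fibroblast and endothelial markers. Of the rest of the latter list, Pecam1 stood at 239 to 381 CPM and changed by 0.10 (adjusted p 0.572 in edgeR). Col1a1, at most 1.92 CPM, rose by 5.56 (adjusted p 0.00788 in edgeR). Of the erythroid and megakaryocyte markers, 4 of 6 were under 1 CPM in every library. The summed level of the erythroid and megakaryocyte list was between 4.45 and 8.46 CPM at day 0 and between 41.1 and 75.3 at day 4 with shOgdh2081. It was between 4.50 and 12.9 and then between 13.3 and 19.6 with shOgdh346, and between 3.56 and 10.7 and then between 1.70 and 7.26 in the control. Both markers of this list that were tested rose (Itga2b by 2.87, adjusted p 0.00784 in edgeR). The summed level of 10 neutrophil maturation markers was higher after the silencing: between 1117 and 3222 CPM at day 0 and between 19335 and 44320 at day 4 with shOgdh346, and between 499 and 1069 and then between 7082 and 12677 with shOgdh2081. In the control it was between 319 and 2099 and then between 408 and 1473. Of these markers 9 of 10 rose in the mean net change and none fell. The part of these marker shifts in the results that follow was not tested. In these bulk libraries a shift in the mix of cells and a change of RNA per cell cannot be told apart.

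The net change is the log2 change from day 0 to day 4 of an Ogdh hairpin minus that of the control hairpin, and the mean net change averages it over both Ogdh hairpins. In the mean net change 2 of the 9 genes tested rose (Slc7a11 and Gsr), 2 fell (Cth and Chac1) and 5 did not pass the threshold, an adjusted p of 0.05 in edgeR's quasi-likelihood test. Over all genes tested 37.7% passed, 17.9% as rises and 19.8% as falls, so the count among the 9 was near the background. Their median was -0.02, and that of all genes -0.00. What set Slc7a11 and Cth apart within the group was size: they moved in opposite directions, by 21.6-fold and 8.56-fold.

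**Figure D1:**
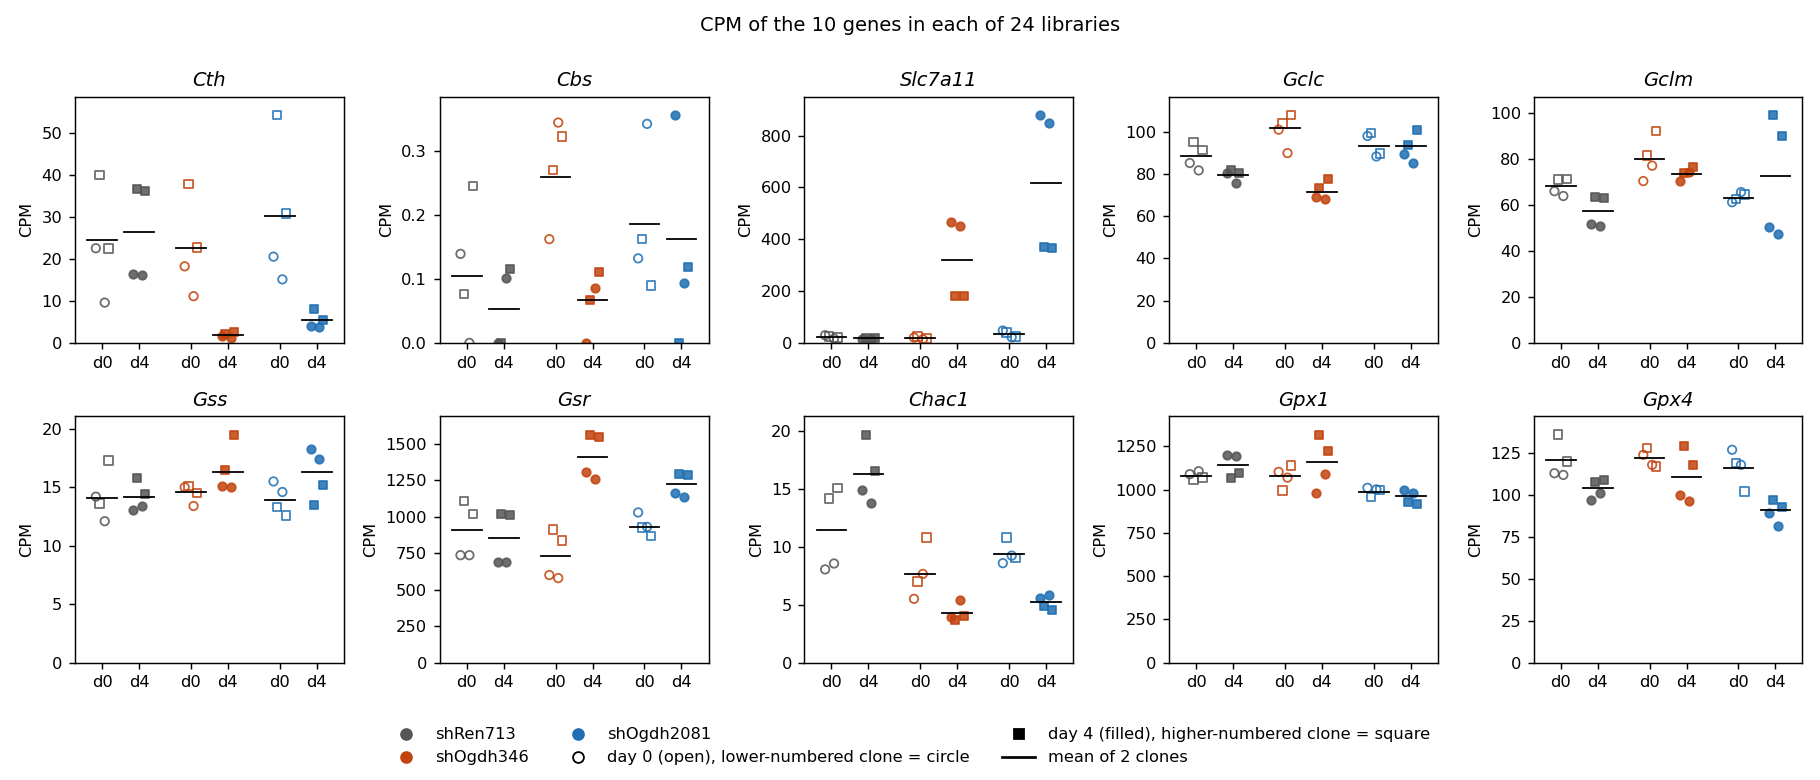
Level of each of the 10 genes in CPM (linear axis from 0) in the 24 libraries, by hairpin and day; symbols are single libraries, their shape marks the clone and the bar is the mean of the 2 clones. Slc7a11 runs from 181 to 880 CPM in the 8 day 4 libraries with an Ogdh hairpin and from 13.9 to 47.7 at day 0 across all hairpins.

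Slc7a11, the cystine carrier, was the gene of the group that rose most. It lies on chromosome 3 from 49892526 to 50443614, on the minus strand (GRCm38). At day 4 its libraries held 15.3 and 15.7 CPM (clone 2) and 20.8 and 17.2 CPM (clone 7) with shRen713. With shOgdh346 they held 466 and 453 CPM (clone 1) and 182 and 181 CPM (clone 5). With shOgdh2081 they held 880 and 848 CPM (clone 3) and 369 and 365 CPM (clone 5). Every Ogdh library stood above every control library, and the libraries of a clone lay close together while the clones of a hairpin differed.

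At day 0 the Slc7a11 libraries overlapped across hairpins, with 29.6, 16.3, 25.5 and 20.3 CPM with shRen713, 20.6, 13.9, 24.6 and 16.6 with shOgdh346, and 47.7, 21.8, 39.7 and 24.7 with shOgdh2081. The mean net change was 4.44 ± 0.59 (log2, SE), with a 95% interval of 2.89 to 5.99 and an adjusted p of 0.00516 in edgeR's quasi-likelihood test. The single clones with an Ogdh hairpin rose by 24.8-fold, 9.04-fold, 25.7-fold and 11.5-fold, whereas the control clones went to 0.687 and 0.808 of their day 0 level. In the exact permutation test over the 15 ways to split the 6 clones, two-sided, p was 0.0667, the smallest this design allows. The call rested on both control clones: without clone 2 or clone 7 of shRen713 the adjusted p in edgeR was 0.104 or 0.102, over a range of 4.04 to 4.77 for the change in all 38 alternative settings.

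A promoter sequence was available in RefSeq's table (GRCm38.p6) for 7 of the 10 genes, and for Cth, Gclc and Gsr none was shown. The table is built on its own transcript starts, which can lie apart from the gene start of the count table, and Gpx4 has more than 1 window. A window of 250 bases before and 50 bases after each such start was searched on both strands for 2 motifs. These were TGATGCAA, the form of the C/EBP-ATF response element that the factor ATF4 is known to bind, and TGACNNNGC, the core of the antioxidant response element that NRF2 binds. TGATGCAA stood in 0.792% of the 32817 windows and TGACNNNGC in 10.2%. The stretch before the start of Slc7a11 (chr3:50443615-50443863, minus strand) is shown because it holds 2 matches to TGATGCAA, 1 on each strand, in capitals, at 65 to 58 and 46 to 39 bases before the gene start.
Slc7a11: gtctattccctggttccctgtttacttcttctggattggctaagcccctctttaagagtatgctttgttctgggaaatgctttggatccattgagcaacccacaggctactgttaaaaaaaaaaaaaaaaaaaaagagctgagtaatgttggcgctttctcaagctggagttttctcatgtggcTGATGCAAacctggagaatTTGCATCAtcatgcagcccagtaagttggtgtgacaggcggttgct
That of Chac1 (chr2:119350992-119351228, plus strand), a gene that fell, is shown for comparison because it holds 1 such match, on the opposite strand and in capitals, at 180 to 173 bases before the gene start.
Chac1: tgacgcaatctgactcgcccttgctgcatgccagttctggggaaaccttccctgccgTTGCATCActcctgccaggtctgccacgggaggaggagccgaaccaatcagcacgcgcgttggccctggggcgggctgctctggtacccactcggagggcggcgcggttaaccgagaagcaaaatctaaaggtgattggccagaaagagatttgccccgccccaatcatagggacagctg
That of Gclm (chr3:122245307-122245556, plus strand), whose mean net change did not pass, holds 1 match to TGACNNNGC on the opposite strand, in capitals, at 134 to 126 bases before the gene start.
Gclm: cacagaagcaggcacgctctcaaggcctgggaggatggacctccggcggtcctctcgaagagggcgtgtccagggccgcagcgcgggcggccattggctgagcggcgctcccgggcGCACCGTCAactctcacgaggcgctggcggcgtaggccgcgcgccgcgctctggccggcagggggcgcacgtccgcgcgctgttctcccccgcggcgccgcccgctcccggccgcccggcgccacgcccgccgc
The windows searched for Gss, Gpx1, Gpx4 and Cbs held neither. A match is a description of these letters, and the genes with TGATGCAA, Slc7a11 and Chac1, moved in opposite directions.

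Cth, which releases cysteine from cystathionine, moved the other way. It lies on chromosome 3 from 157894248 to 157925077, on the minus strand. At day 4 its libraries held 16.4, 16.1, 36.5 and 36.2 CPM with shRen713, 1.67, 1.21, 2.20 and 2.52 with shOgdh346, and 4.01, 3.85, 8.10 and 5.52 with shOgdh2081. At day 0 they held 22.5, 9.58, 39.9 and 22.4 CPM, 18.2, 11.1, 37.8 and 22.7 CPM, and 20.5, 15.1, 54.2 and 30.8 CPM in the same order. The hairpins overlapped at day 0, and at day 4 no Ogdh library reached the lowest control library.

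Cth fell by 3.10 ± 0.18 (log2, SE) in the mean net change, with an adjusted p of 1.77e-05 in edgeR's quasi-likelihood test. The clones with shOgdh346 lost 11.5-fold and 12.7-fold of their day 0 level and those with shOgdh2081 4.45-fold and 6.28-fold, while the control clones changed by 0.05 and 0.13 on the log2 scale. The exact permutation p over clones was 0.0667, two-sided, again the smallest possible. For shOgdh2081 alone (-2.50 ± 0.20, adjusted p 0.000181 in edgeR) the call was lost without the clone as a block (adjusted p 0.107). The clones kept their order within each hairpin: clone 7 of shRen713 and clone 5 of each Ogdh hairpin had the higher Cth level at day 0 and at day 4.

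Cbs, the enzyme before Cth in transsulfuration, was near the limit of detection. No library held more than 0.356 CPM, and its highest mean over the clones of a hairpin and day was under every other member's, so no change is given.

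Per kilobase of transcript, the order of Slc7a11 and Cth turned over in the Ogdh clones. On that scale the Slc7a11 level was below the Cth level in all 6 clones at day 0, with Cth 2.59 to 7.28 times as high. The day 0 order rests on the lengths used, 13922 bases for Slc7a11 and 2791 for Cth. In CPM, Slc7a11 was already above Cth at day 0 in clone 2 of shRen713 (22.6 against 15.7). The same held for clone 1 of shOgdh346 (18.3 against 15.9) and clone 3 of shOgdh2081 (33.7 against 17.5). In the other clone of each hairpin it was below. At day 4 the control clones still had 5.22 and 9.51 times as much Cth. In the Ogdh clones the Slc7a11 level was then 65.9 and 15.7 times the Cth level with shOgdh346 and 44.0 and 10.9 times with shOgdh2081.

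**Figure D2:**
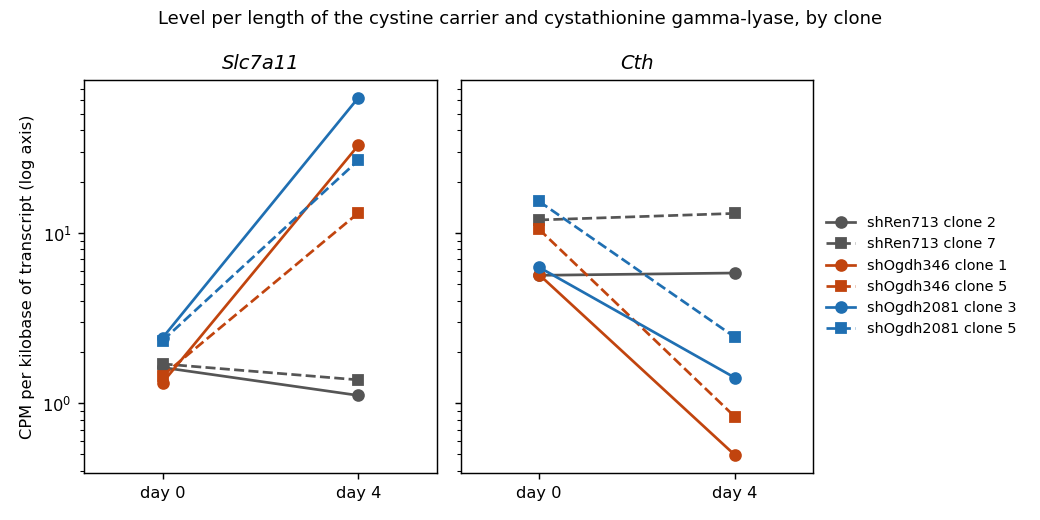
Slc7a11 and Cth in CPM per kilobase of transcript (log axis) at day 0 and day 4, 1 line per clone. The 4 Ogdh clones rise to between 13.1 and 62.2 for Slc7a11 and drop to between 0.496 and 2.44 for Cth, and the 2 control clones stay between 1.11 and 1.70 for Slc7a11.

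Over all 10 genes, the mean level per kilobase at day 0 in the 4 Ogdh clones ran from Gpx1 (717 ± 39.2 CPM per kilobase, SD, n = 4) and Gsr (302 ± 60.5) through Gpx4 (68.9 ± 3.35), Gclc (25.9 ± 1.59), Gclm (11.4 ± 1.82), Cth (9.46 ± 4.47), Chac1 (5.21 ± 0.992), Gss (2.41 ± 0.162) and Slc7a11 (1.88 ± 0.577) to Cbs (0.0665 ± 0.0215). Clone ranges overlapped between Gclm and Cth, between Cth and Chac1, and between Gss and Slc7a11, so these neighbours are not ranked by the data. At day 4 in the same clones Slc7a11 had moved from place 9 to place 4 (33.6 ± 20.7), where its clones overlapped with those of Gpx4, Gclc and Gclm. Cth had moved from place 6 to place 9 (1.30 ± 0.853), and its clone range then lay below that of Gss.

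Gclc encodes the catalytic subunit of glutamate-cysteine ligase, the rate-limiting enzyme of glutathione synthesis. Its day 4 libraries held 80.7, 75.7, 82.0 and 80.6 CPM with shRen713, 69.1, 68.2, 73.5 and 77.6 with shOgdh346, and 89.3, 85.1, 93.5 and 101 with shOgdh2081. The shOgdh346 libraries overlapped the control by 1 library and the shOgdh2081 libraries all lay above it. The mean net change was -0.11 ± 0.09 (adjusted p 0.402 in edgeR's quasi-likelihood test). With shOgdh346 alone Gclc fell by 0.36 ± 0.11 (adjusted p 0.0299 in edgeR), a call that was lost in 9 of 38 alternative settings, and with shOgdh2081 the value was 0.14 ± 0.11 (adjusted p 0.344).

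Gclm, the modifier subunit that raises the activity of Gclc, differed between the clones of shOgdh2081. Its day 4 libraries held 51.7, 50.7, 63.4 and 63.0 CPM with shRen713 and 70.5, 74.3, 73.8 and 76.7 with shOgdh346, all above the control. With shOgdh2081 clone 3 held 50.3 and 47.5 CPM and clone 5 held 99.2 and 90.2, which were the lowest and the highest values of the day. The mean net change of 0.26 ± 0.26 did not pass (adjusted p 0.472 in edgeR's quasi-likelihood test). Without clone 3 of shOgdh2081 it was 0.49 with an adjusted p of 0.0113 in edgeR, and without clone 5 it was 0.01 with an adjusted p of 0.955.

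Gss, which adds glycine as the last step, held 13.1 to 15.8 CPM at day 4 with shRen713, 13.5 to 18.3 with shOgdh2081 and, with shOgdh346, a mean of 16.3 and at most 19.5. The ranges overlapped, and the mean net change was 0.17 ± 0.15 with a 95% interval of -0.17 to 0.52 and an adjusted p of 0.397 in edgeR. The exact permutation p over clones was 0.133, two-sided. Gss shares 395 exon bases with Acss2 on the opposite strand, so that part of its counts cannot be assigned without the strand of counting. Gclm shares 296 exon bases with a transcript on the opposite strand and 244 with the pseudogene Gm6061 on its own strand, so its counts are uncertain there whatever the strand setting.

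Gsr, glutathione reductase, rose. Its day 4 libraries held 693, 688, 1021 and 1011 CPM with shRen713, 1305, 1262, 1563 and 1544 with shOgdh346, and 1160, 1135, 1295 and 1288 with shOgdh2081. At day 0 they held 737, 737, 1107 and 1021 CPM, 601, 580, 914 and 839 CPM, and 1030, 931, 928 and 867 CPM in the same order. All Ogdh libraries lay above all control libraries at day 4, after overlapping with them at day 0.

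The mean net change of Gsr was 0.77 ± 0.13, a 1.70-fold rise with an adjusted p of 0.00227 in edgeR's quasi-likelihood test. The Ogdh clones rose by 2.15-fold and 1.79-fold with shOgdh346 and by 1.18-fold and 1.46-fold with shOgdh2081, and the control clones went to 0.937 and 0.945 of their day 0 level. The exact permutation p over clones was 0.133, two-sided. Without the clone as a block the adjusted p in edgeR was 0.131, and for shOgdh2081 alone the rise of 0.48 ± 0.15 (adjusted p 0.0445) was lost in 14 of 38 alternative settings.

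Chac1, a gamma-glutamyl cyclotransferase that degrades glutathione inside the cell and a known target of the ATF4 stress pathway, fell. It held 14.9, 13.8, 19.7 and 16.6 CPM at day 4 with shRen713, 3.97, 5.45, 3.66 and 4.05 with shOgdh346, and 5.59, 5.82, 4.91 and 4.58 with shOgdh2081. At day 0 the values were 8.06, 8.57, 14.2 and 15.1 CPM, 5.52, 7.67, 7.02 and 10.8 CPM, and 8.60, 9.25, 10.8 and 9.06 CPM. The hairpins overlapped at day 0 and not at day 4.

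The mean net change of Chac1 was -1.36 ± 0.27, a 2.57-fold fall with an adjusted p of 0.00453 in edgeR's quasi-likelihood test. It had parts on both sides: the Ogdh clones changed by -0.36 and -1.26 (shOgdh346) and by -0.66 and -1.05 (shOgdh2081), and the control clones by 0.78 and 0.32. The control change of 0.54 ± 0.22 did not pass (adjusted p 0.170 in edgeR), while the change without subtraction of the control did for both shOgdh346 (-0.81 ± 0.24, adjusted p 0.0160) and shOgdh2081 (-0.84 ± 0.23, adjusted p 0.0135). The adjusted p of the mean net change was 0.0576 without clone 2 of shRen713. With shOgdh346 alone the value was -1.35, and without clone 5 of that hairpin it was -0.90 with an adjusted p of 0.0622 in edgeR.

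Neither peroxidase passed the test. Gpx1, the abundant glutathione peroxidase of the cytosol, held 1068 to 1200 CPM at day 4 with shRen713, 980 to 1317 with shOgdh346 and 916 to 998 with shOgdh2081. Its mean net change was -0.05 ± 0.12, with a 95% interval of -0.33 to 0.24 and an adjusted p of 0.803 in edgeR. Gpx4, the peroxidase that reduces lipid peroxides in membranes, held 97.3 to 109 CPM, 96.3 to 129 and 81.4 to 97.2 in the same order, with a mean net change of -0.02 ± 0.13, an interval of -0.31 to 0.26 and an adjusted p of 0.902. Within shOgdh2081 Gpx4 fell from day 0 to day 4 by 0.35 ± 0.10 (adjusted p 0.0188 in edgeR), and the control changed by -0.22 ± 0.10 (adjusted p 0.232). The net change of Gpx4 with shOgdh2081 was -0.13 ± 0.15 and did not pass (adjusted p 0.548 in edgeR).

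**Figure D3:**
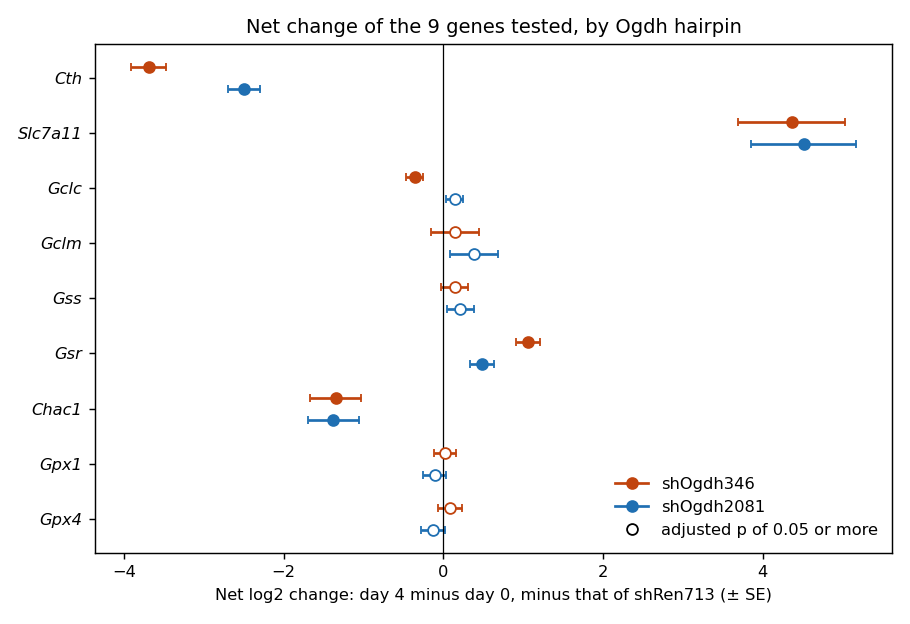
Net log2 change (day 4 minus day 0, minus that of shRen713) of the 9 genes tested, with SE as bars, for each Ogdh hairpin; filled points have an adjusted p under 0.05 in edgeR. Slc7a11 lies at 4.36 and 4.51 and Cth at -3.69 and -2.50, and the other genes lie between -1.38 and 1.06.

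The Ogdh hairpins were then compared. In the net change, 5 of 9 genes passed with shOgdh346, where 34.8% of all genes did, and 4 of 9 with shOgdh2081, where 27.8% did. Both share the control clones. Slc7a11 rose by 4.36 ± 0.67 with shOgdh346 (adjusted p 0.00897 in edgeR) and by 4.51 ± 0.66 with shOgdh2081 (adjusted p 0.0107). In the change without the control subtracted, 5 of 9 passed with each hairpin, against 59.5% and 53.4% of all genes. In shRen713 none passed, against 6.88%. At an unadjusted p under 0.05 the count in shRen713 was 1 in edgeR, and DESeq2 also called 0. For these last counts the shares of all genes are not given here.

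The change of shOgdh346 minus that of shOgdh2081 passed for none of the 9 genes in edgeR, where 0.105% of all genes passed. At an unadjusted p under 0.05 the count was 3, and DESeq2 called 2 (Cth and Gsr). The shares of all genes at these criteria are not given here, so these counts were not set against a background. Cth fell further with shOgdh346, by a difference of -1.19 ± 0.23 (95% interval -1.71 to -0.68, adjusted p 0.113 in edgeR). The difference for Gclc was -0.50 ± 0.11 (interval -0.74 to -0.26, adjusted p 0.148) and that for Gsr 0.58 ± 0.15 (interval 0.23 to 0.92, adjusted p 0.266). For Slc7a11 it was -0.15, with an interval of -1.79 to 1.48 that spans no difference and differences of either sign, and for Chac1 0.03 with an interval of -0.72 to 0.79.

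The hairpins were also compared with the control within each day. At day 0 none of the 9 genes differed from shRen713 with either hairpin, where 0% of all genes did; the count at an unadjusted p under 0.05 was 0 in edgeR and DESeq2 called 0. At day 4, 3 of 9 differed with shOgdh346 (35.9% of all genes) and 3 of 9 with shOgdh2081 (28.5%): Slc7a11 was higher, by 4.20 ± 0.53 and 5.16 ± 0.55, Cth was lower, with -3.81 ± 0.70 and -2.30 ± 0.65, and Chac1 was lower, with -1.92 ± 0.31 and -1.64 ± 0.31. Without clone 5 of shOgdh2081, 1 gene (Slc7a11) still differed with that hairpin. The Cth call with shOgdh2081 (adjusted p 0.0320 in edgeR) was also lost without the filter and without library rep1 of shRen713 clone 2 at day 0. Leaving out clone 7 of shRen713, either clone of shOgdh346 or clone 3 of shOgdh2081 lost it as well. Gsr was higher by 0.73 ± 0.26 and 0.52 ± 0.26 without passing (adjusted p 0.0597 and 0.167 in edgeR).

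Libraries of the same clone and day differed by more than counting noise, with a chi-square per gene of at least 6.78 in each day 0 pair and of at most 2.94 in each day 4 pair. At day 0 the difference reached some of the members. From library rep1 to rep2 at day 0, Cth was lower by 0.44 to 1.23 on the log2 scale and Slc7a11 by 0.33 to 1.13, in all 6 clones for both genes. In edgeR's quasi-likelihood test with the clone as a block, 4 of 9 genes were lower in rep2 and none higher, where 20.2% of all genes were lower and 21.7% higher, 41.9% in all: Cth (-0.78 ± 0.07, adjusted p 2.65e-10), Slc7a11 (-0.69 ± 0.08, adjusted p 1.81e-07), Gpx4 (-0.12 ± 0.04) and Gsr (-0.08 ± 0.03). At day 4 none of the 9 differed, against 7.12% of all genes. The count at an unadjusted p under 0.05 was 1 in edgeR, for which the share of all genes is not given here. What separates rep1 from rep2 is not given in the labels. The mean net change of Slc7a11 was 4.38 with rep1 alone as the day 0 level and 4.53 with rep2 alone, and that of Cth was -3.02 and -3.32, so neither result rested on the choice.

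**Figure D4:**
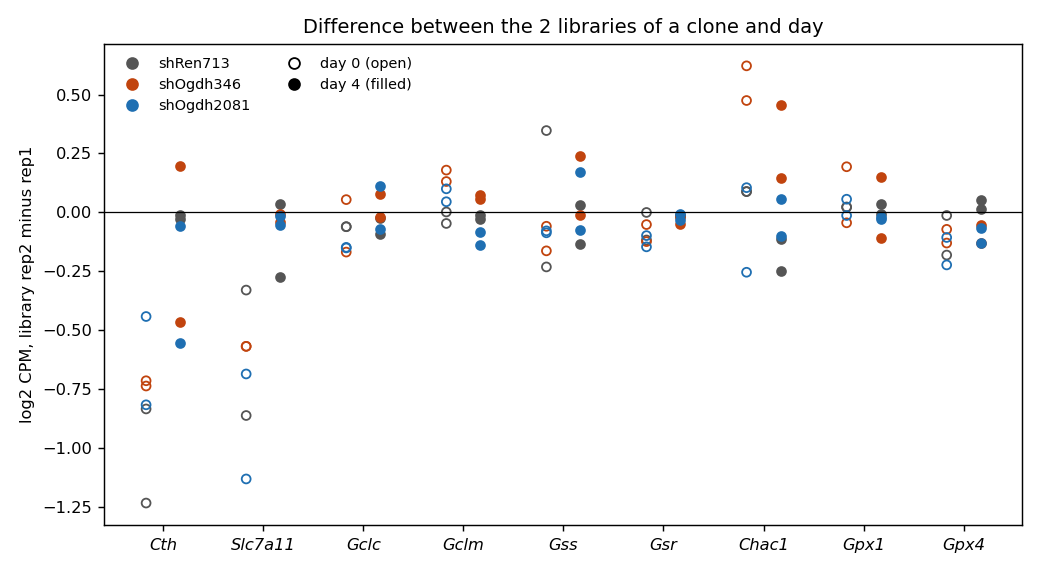
Log2 CPM of library rep2 minus library rep1 for each clone, at day 0 (open) and day 4 (filled), for the 9 genes tested. Cth and Slc7a11 lie between -0.33 and -1.23 at day 0 in all 6 clones, and no gene shows such a shift in all clones at day 4.

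Genes whose levels followed these most closely were found by Pearson correlation of log2 CPM over the 12 sums of a clone and day, which share clones, and are given as a description. For Slc7a11 they were Iqsec1 (0.990), Rap1b (0.989), Car4 (0.988), Hcar2 (0.988) and Il1rn (0.987). For Cth they included Cks2 (0.980), Gpt2 (0.979), Cars (0.975), the cysteinyl-tRNA synthetase, and Glo1 (0.974), the glyoxalase that uses glutathione. For Chac1 they included Sco1 (0.947), Ube2t (0.939), Dnaja3 (0.931) and Gpr180 (0.925). Among the members, Cth and Slc7a11 stood at -0.840, Cth and Chac1 at 0.822, and Slc7a11 and Gsr at 0.737.

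The other genes of the pathway were read from lists by the same mean net change, in which 17.9% of all genes tested rose and 19.8% fell. Of the carriers of cystine, cysteine and glutathione, 1 of 7 tested rose and 2 fell (median -0.25). Slc1a4, a neutral amino acid carrier that takes cysteine, fell by 2.59 ± 0.26 (adjusted p 0.000191 in edgeR) and the glutamine carrier Slc1a5 by 0.64 ± 0.10, while Abcc1, which exports glutathione conjugates, rose by 0.87 ± 0.12. Slc3a2, the partner chain that brings xCT to the membrane, is named outside the rule and after its value was seen: it changed by 0.48 ± 0.22 (adjusted p 0.137 in edgeR), with 249 ± 82.1 CPM (SD, n = 4) at day 4 in the Ogdh clones.

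In the methionine cycle and sulfur amino acid breakdown, 3 of 17 tested genes rose and 5 fell (median -0.20). Mat2a, which makes S-adenosylmethionine, fell by 0.67 ± 0.09, and Ahcy, which releases the homocysteine that feeds transsulfuration, fell by 0.96 ± 0.15. Sqor, which oxidises sulfide in mitochondria, rose by 1.97 ± 0.17, from 14.4 ± 1.22 to 61.7 ± 13.8 CPM (SD, n = 4) in the Ogdh clones.

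Of the genes of glutathione breakdown, 2 of 10 rose and 2 fell (median 0.40). Lap3 fell by 0.63 ± 0.15 and Nit2 by 0.57 ± 0.13; Ggt7 passed as a rise but stood at 0.0211 ± 0.0423 CPM at day 0 in the Ogdh clones and 0.951 ± 0.616 at day 4 (SD, n = 4), so its fold is not given. Of the peroxidases and transferases 2 of 22 rose and 5 fell (median -0.06). Glrx, the glutaredoxin that reduces protein disulfides with glutathione, rose by 1.52 ± 0.11 (adjusted p 4.77e-05 in edgeR), Esd rose by 0.75 ± 0.09, and Gstt2 fell by 1.19 ± 0.20.

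Gpx1 and Gpx4 are selenoproteins, and of 8 genes of selenoprotein synthesis none rose and 4 fell (median -0.41), where 17.9% of all genes rose and 19.8% fell. Sephs1 fell by 0.57 ± 0.09, Sephs2, which makes the selenium donor, by 0.54 ± 0.10, and Eefsec, the elongation factor for selenocysteine, by 0.53 ± 0.11. The Gpx1 and Gpx4 counts given before did not pass the test.

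Of 13 known regulators of these genes, 3 rose and 4 fell (median 0.15). Bach1, a repressor of genes with antioxidant response elements, rose by 1.50 ± 0.11 (adjusted p 5.38e-05 in edgeR), and the stress factors Atf5 and Nupr1 fell, with values of -0.90 ± 0.13 and -1.95 ± 0.32. The genes that follow are named outside the rule and after their values were seen. Of other stress-response genes, Atf3 passed as a rise of 3.22 ± 0.62 (adjusted p 0.00481 in edgeR), with parts on both sides. Its mean in the Ogdh clones went from 3.41 ± 0.851 to 7.27 ± 9.27 CPM (SD, n = 4). In the control clones it went from 3.79 ± 2.19 to 0.541 ± 0.330 CPM (SD, n = 2). Sesn2 rose by 0.58 ± 0.15 (adjusted p 0.0144 in edgeR). Atf4, the activator of Slc7a11, Cth and Chac1 under amino acid stress, fell by 0.58 ± 0.15 (adjusted p 0.0151 in edgeR). Keap1 fell by 0.28 ± 0.09 (adjusted p 0.0379 in edgeR), and Nfe2l2, which encodes NRF2, changed by 0.25 ± 0.10 (adjusted p 0.0676).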

How the data were processed

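Polyadenylated RNA of 24 libraries was read as single ends, per the labels' protocols. The authors deposited counts, as whole numbers, for each gene. STAR 2.6.1a, featureCounts 1.6.3, Trimmomatic 0.36, FastQC 0.11.5 and the build mm10 (GRCm38) are named in the submitters' processing notes. The labels' protocol instead names a human build and an RPKM matrix, which the values do not match. The strand setting is not given in the sources used here.

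Both libraries of a clone on a day were added up, giving 12 sums. The clone carries the hairpin and was sampled at both days, so it was the replicate and the block. After filterByExpr and TMM scaling, changes were fitted in edgeR 4.0.16 (R 4.3.3, robust quasi-likelihood) with 3 residual and a median of 6.11 prior degrees of freedom. Levels within a day used 6 groups, in which the sums of a clone at both days are not independent, so their 6 residual degrees of freedom are overstated. Adjusted p is by Benjamini-Hochberg over the 14249 genes tested for changes and levels, with a threshold of 0.05. The comparisons of rep2 with rep1 were separate fits over 12185 genes at day 0 and 12906 at day 4. Their shares of all genes refer to those numbers. The labels do not say how a clone's replicate libraries were made. P-values of the main fits describe the spread between these clones.

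The scripts were tested on simulated data. The 10 genes and the lists were chosen with earlier results of these data known. Named genes are the 10 genes, Ogdh, up to 3 genes per list with the smallest p, and the 5 genes most like Slc7a11, Cth and Chac1 among those with a mean of at least 5 CPM; some of the latter are not reported here. Alternatives were RLE scaling, no filter, DESeq2 1.42.0, no clone block, unsummed libraries, either day 0 library alone, and leaving out libraries or clones.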

Additional observations from a re-analysis of the deposited data

How the results depend on the processing

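Limits: each hairpin had 2 clones, 9 genes could be tested, and Cbs was too low at this depth. Over 38 alternative settings the mean net change of Cth kept its direction and call (-3.39 to -2.87). Slc7a11, Gsr and Chac1 kept their direction and lost the call under the settings named beside them. Of the 9 genes, 4 passed in the mean net change; leaving out libraries or clones gave 2 to 5, the lowest (Cth and Gsr) without clone 2 of shRen713, where the calls over all genes went from 5367 to 2392. The same ranges were 2 to 5 for the net change of shOgdh346, 1 to 5 for that of shOgdh2081, 0 to 1 for the difference between the hairpins, 4 to 5 for the change of each Ogdh hairpin, 2 to 4 and 1 to 3 for the day 4 levels of shOgdh346 and shOgdh2081, and 4 to 5 for the day 0 libraries. Without the clone block 2 genes passed in the net change of shOgdh346, 1 in that of shOgdh2081 and 2 in the change of shOgdh2081, where it was 5. Over all genes the mean net change then had 2732 calls. For the comparisons other than the mean net change, calls over all genes under the alternative settings are not given here.

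The difference between the hairpins, 0 as reported, had 3 calls without the filter (Cth, Gclc and Gsr), 2 in DESeq2, 2 with libraries not summed and 3 with the replicate block. The change of shRen713, 0 as reported, had 2 calls without the filter (Chac1 and Slc7a11), 2 with libraries not summed, 3 with the replicate block (Chac1, Gclc and Gpx4) and 1 with rep2 alone at day 0 (Cth). For neither comparison are the calls over all genes under these settings given here, so these counts were not set against a background. Unsummed libraries count each clone and day as 2 samples. Without the filter, edgeR gave Slc7a11 and Cth an adjusted p of 2.11e-203 and 1.29e-55 in the mean net change, at 4.41 and -3.12. The main fit gave 0.00516 and 1.77e-05 at 4.44 and -3.10. Calls of the unfiltered setting are therefore not read as a measure of the spread between clones. With the replicate block the mean net change was -3.17 for Cth, 4.46 for Slc7a11, 0.76 for Gsr and -1.34 for Chac1, and all genes had 7735 calls. The rep2 minus rep1 differences of a clone at day 0 and at day 4 correlated across genes at -0.02 to 0.01. Day 4 pairs were closer to counting noise than day 0 pairs, with a chi-square per gene of at most 2.94. These correlations therefore cannot show whether the replicate numbers pair libraries across days. Gpx4 changed sign at 0.00 under RLE scaling and in DESeq2, at 0.01 with rep2 alone at day 0 and within -0.12 to 0.05 when libraries or clones were left out, and Gpx1 at 0.02 without clone 1 of shOgdh346 (-0.13 to 0.02 over all that were left out). Beyond the number of samples that each setting leaves or adds, the cause was not tested.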

Other observations

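Of 10 genes of ferroptosis and lipid peroxide control outside the glutathione pathway, 5 rose and 1 fell in the mean net change (median 0.67, against -0.00 over all genes tested, of which 17.9% rose and 19.8% fell). Alox5, the lipoxygenase of leukotriene synthesis and a gene of mature myeloid cells, rose by 2.05 ± 0.15, from 175 ± 17.9 to 645 ± 82.7 CPM (SD, n = 4) in the Ogdh clones, with an adjusted p of 5.42e-05 in edgeR. Slc40a1, the iron exporter ferroportin, rose by 2.39 ± 0.18, from 29.4 ± 9.79 to 175 ± 76.0 CPM (SD, n = 4). Dhodh, a mitochondrial enzyme of pyrimidine synthesis that also reduces ubiquinone, fell by 0.89 ± 0.13, from 35.0 ± 2.18 to 18.2 ± 2.86 CPM (SD, n = 4). The part of the rise in neutrophil maturation markers in these changes was not tested.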
